A study of Mus musculus with 10 samples.

Results

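The genes described here are 8 transcription factors of the macrophage lineage, Spi1, Maf, Cebpa, Cebpb, Runx3, Zeb2, Irf5 and Klf4, chosen by gene name from the 17279 genes of the deposited table. All 8 were listed, and all 8 passed the filter on low counts that left 16949 genes to be tested. Their levels were compared between 5 sham and 5 pMCAO libraries of RNA from small intestinal macrophages at 24 h after surgery. pMCAO, the permanent occlusion of the middle cerebral artery, is a model of stroke without reperfusion, and sham surgery was its control. All libraries came from mice labelled C57BL6/J, and the design text names cells sorted for GFP driven by Cx3cr1, a chemokine receptor gene of intestinal macrophages that monocytes and some dendritic cells also use. The name of replicate 1 of each group carries the word pool, with no number of animals, and age and sex are not given in the labels.

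Macrophages take their identity from a small set of factors that bind DNA in combination. PU.1, the product of Spi1, opens myeloid enhancers together with the C/EBP proteins, while Maf, Zeb2, Runx3, Irf5 and Klf4 shape how the cell settles in its tissue and responds to signals. In the gut wall, monocytes that arrive from blood mature into resident macrophages, and several of these factors take part in that step.

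None of the 8 factors passed an FDR of 0.05 in the quasi-likelihood test of edgeR with Benjamini-Hochberg adjustment over all genes tested, and the same was true of all 16949 genes (0% called). At an unadjusted p under 0.05 the count was 0 of the 8 factors, against 799 of all genes (4.71%, with 2.26% higher and 2.45% lower), while DESeq2 called 3 genes and limma-voom 0, none of them among the 8. The point estimates of Maf, Cebpa, Zeb2 and Klf4 were above 0 and those of Spi1, Cebpb, Runx3 and Irf5 below, against 49.4% of all genes above 0. The median log2 fold change was 0.12 over the 8 factors and -0.01 over all genes. Sham and pMCAO values overlapped for every one of the 8, and 0.985% of all genes had groups that did not overlap. Total counts were between 6430643 and 60665972 per library and lower in the pMCAO group by 1.18 on the log2 scale (exact permutation test, two-sided p = 0.0476, adjusted p = 0.429 over 9 library measures). The 8 factors had between 254 and 62405 counts in a library, so the spread between libraries, and not counting error, sets the precision of what follows.

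The sorted cells carried macrophage RNA throughout. All 11 macrophage markers, among them Csf1r, Adgre1 and Fcgr1, were detected in every library, with a summed level of 3266 to 9227 scaled CPM (a gene's count relative to the TMM-scaled total of its library) in sham and 4669 to 10738 in pMCAO. T cell markers, such as Cd3e, Cd3d and Cd3g, summed to 33.0 to 374 in sham and 32.8 to 219 in pMCAO, B and plasma cell markers to 826 to 24813 and 1128 to 27290, and epithelial markers, led by Epcam, to 251 to 381 and 52.8 to 383. The B and plasma cell sum, most of it Jchain, exceeded the macrophage sum in sham replicates 2 and 5 and in pMCAO replicates 1, 2 and 5. The defining B cell marker Cd79a was at 0 in pMCAO replicate 3, where 3 of the 7 B and plasma cell markers were at 0. In bulk RNA, fewer cells of a type and less RNA per cell cannot be told apart. Sham replicate 5 and pMCAO replicate 4 stand apart by Xist, the RNA of the inactive X chromosome, at 1756 and 4461 scaled CPM against 1.39 to 4.92 in the other 8, and the values that turn direction without them are given with and without.

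**Figure D1:**
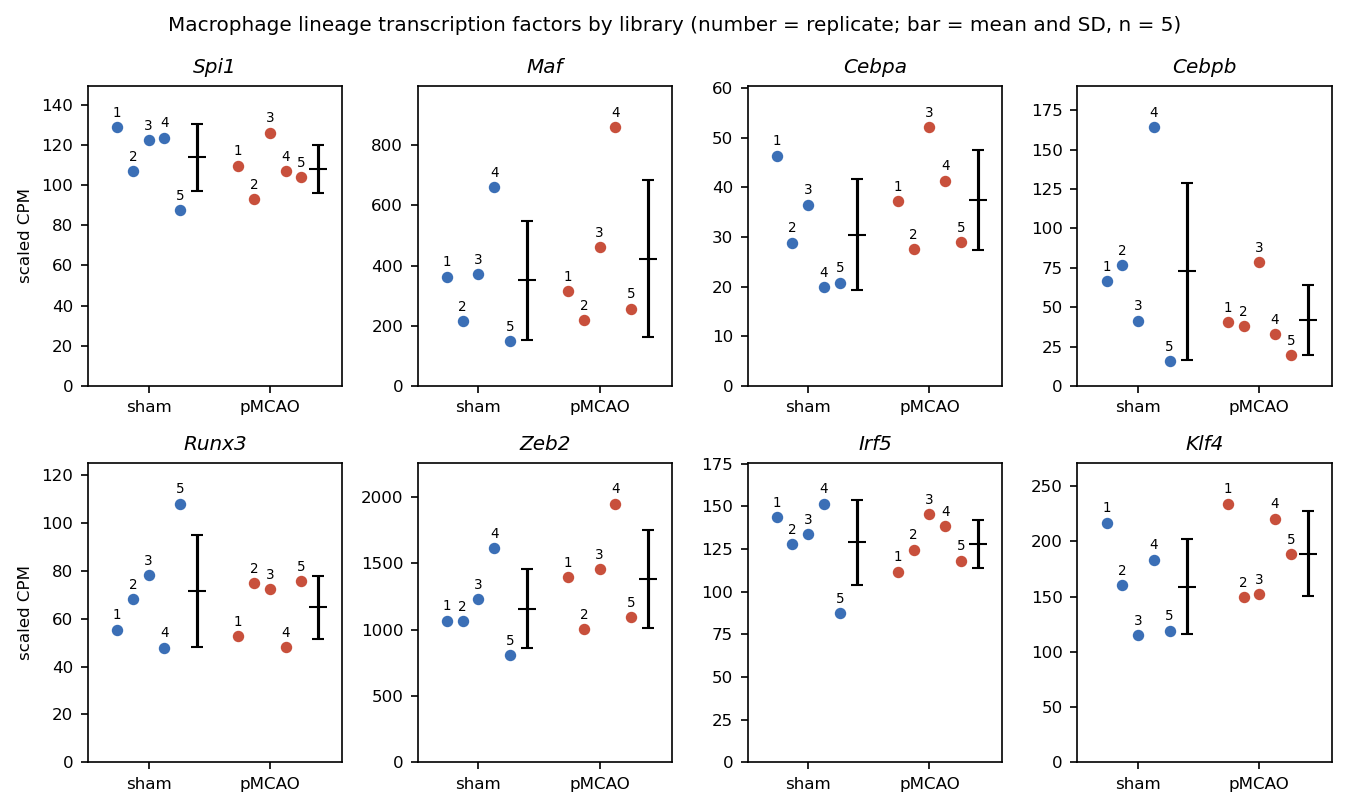
Scaled CPM (vertical axis, from 0) of each of the 8 factors in the 5 sham and 5 pMCAO libraries, one panel per gene, with the replicate number at each point and the mean and SD beside each group. The groups overlap in all 8 panels, and the highest values of Maf and Zeb2 lie in replicate 4 of both groups.

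Spi1 encodes PU.1, the ETS factor without which macrophages do not form, and lies on chromosome 2 from 91082390 to 91115756 (GRCm38, plus strand). Its level was 128.7, 106.8, 122.2, 123.6 and 87.5 scaled CPM in sham replicates 1 to 5, and 109.5, 93.0, 125.9, 106.8 and 103.8 in pMCAO replicates 1 to 5. Sham replicate 5 and pMCAO replicate 2 were lowest, and the values of both groups were interleaved. The means were 114 ± 16.8 in sham and 108 ± 11.9 in pMCAO (SD, n = 5 each), a log2 fold change of -0.08 with a standard error of 0.15 (95% interval -0.40 to 0.25, edgeR FDR = 0.964). Spi1 had a biological coefficient of variation, which is the edgeR estimate of spread between libraries of a group, of 0.230, which is percentile 2.85 of all genes tested.

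Cebpa and Cebpb encode C/EBP alpha, which acts with PU.1 in myeloid progenitors, and C/EBP beta, which rises with inflammatory signals and in maturing macrophages. Both are genes of 1 exon, at chr7:35119293-35121928 and chr2:167688915-167690418 (GRCm38, plus strand). Of the 1504 exon bases of Cebpb, 312 are shared with Tmem189 on the opposite strand, and 51 bases of Cebpa are shared with the antisense gene Gm45091. Whether counting used strand is not given in the sources used here, so reads from these bases may belong to either gene.

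In sham replicates 1 to 5, Cebpb was at 66.5, 76.5, 41.4, 164.2 and 15.6 scaled CPM, and in pMCAO replicates 1 to 5 at 40.6, 37.8, 78.7, 32.7 and 19.6. Sham replicate 4 stood above all others, the lowest value was that of sham replicate 5, and the pMCAO values lay within the sham range. The means were 72.9 ± 56.3 in sham and 41.9 ± 22.1 in pMCAO (SD, n = 5 each). The log2 fold change of -0.80, with a standard error of 0.52, had the widest interval of the 8 factors (95% interval -1.93 to 0.33, edgeR FDR = 0.922). Without sham replicate 4 it was -0.27, and without pMCAO replicate 3 it was -1.16. Without sham replicate 5 it was -1.06 (edgeR, unadjusted p = 0.0320, FDR = 0.921). Its biological coefficient of variation, 0.572, was the highest of the 8, with an SD of log2 values of 1.25 in sham and 0.72 in pMCAO.

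Cebpa was at 46.3, 28.8, 36.5, 19.8 and 20.8 scaled CPM in sham replicates 1 to 5, and at 37.2, 27.5, 52.0, 41.3 and 29.0 in pMCAO replicates 1 to 5. Sham replicates 4 and 5 were lowest and pMCAO replicate 3 highest, with the other values mixed. This gave a log2 fold change of 0.30 with a standard error of 0.27 (95% interval -0.29 to 0.88, edgeR FDR = 0.925). It was 0.14 without pMCAO replicate 3, 0.50 without sham replicate 1 and 0.09 with sample quality weights.

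The 2 genes differ in the bases just before their starts, which are shown because both genes are set against each other within libraries here. The sequences are those of RefSeq on GRCm38.p6, 250 bases that end just before the start, 5′ to 3′ on the plus strand, from chr2:167688665-167688914 for Cebpb and chr7:35119043-35119292 for Cebpa. Capitals mark TGACG or its reverse complement CGTCA, the half-site of the cAMP response element, and TATAAA, the TATA box.
Cebpb: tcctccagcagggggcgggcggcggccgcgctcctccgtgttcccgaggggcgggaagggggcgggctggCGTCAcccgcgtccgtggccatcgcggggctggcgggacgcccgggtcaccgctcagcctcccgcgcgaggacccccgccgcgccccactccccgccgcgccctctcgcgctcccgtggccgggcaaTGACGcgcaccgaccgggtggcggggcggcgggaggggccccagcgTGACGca
Cebpa: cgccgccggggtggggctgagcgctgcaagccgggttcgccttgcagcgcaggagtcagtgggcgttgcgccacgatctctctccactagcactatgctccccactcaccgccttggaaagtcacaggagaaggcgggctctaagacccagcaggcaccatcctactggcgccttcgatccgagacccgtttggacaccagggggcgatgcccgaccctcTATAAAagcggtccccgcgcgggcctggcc

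Cebpb held the half-site TGACG 3 times, beginning 180, 53 and 7 bases before the start, and 17.8% of 32851 promoter entries of the same length held it at least once on either strand. Cebpa held TATAAA 30 bases before the start, as did 12.4% of entries at some position. Cebpb also held the GC box GGGCGG at 5 positions (32.7% of entries) and the C/EBP half-site GCAAT once (23.1% of entries), 57 bases before the start, where its last base is the first of a TGACG. Among the other factors, TGACG also lay in the window of Klf4 and in windows 2 and 3 of Zeb2. The PU-box letters GAGGAA (23.3% of entries) lay in each of the 4 windows of Zeb2. Windows 2 and 3 of Zeb2 overlap, so their GAGGAA, 16 and 42 bases before the start, is the same stretch, as is their TGACG. The 6 factors with an entry had 10 windows, and none was found for Spi1 and Maf. A match of letters is a description of the window and not a binding site.

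A ratio of both C/EBP genes within a library does not depend on how libraries were scaled. The log2 ratio of Cebpb to Cebpa was 0.52, 1.41, 0.18, 3.05 and -0.41 in sham replicates 1 to 5, and 0.12, 0.46, 0.60, -0.34 and -0.57 in pMCAO replicates 1 to 5. All 5 pMCAO values lay below the sham mean, yet only replicate 5 fell outside the sham range. The mean was 0.95 ± 1.35 in sham and 0.06 ± 0.50 in pMCAO (SD, n = 5 each), a difference of -0.89 (exact permutation test, two-sided p = 0.230, adjusted p = 0.690 over 3 ratios, where the smallest possible p is 0.0079). Without sham replicate 4 the difference was -0.37, and without sham replicate 5 it was -1.23 (exact permutation test, unadjusted p = 0.0556).

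**Figure D2:**
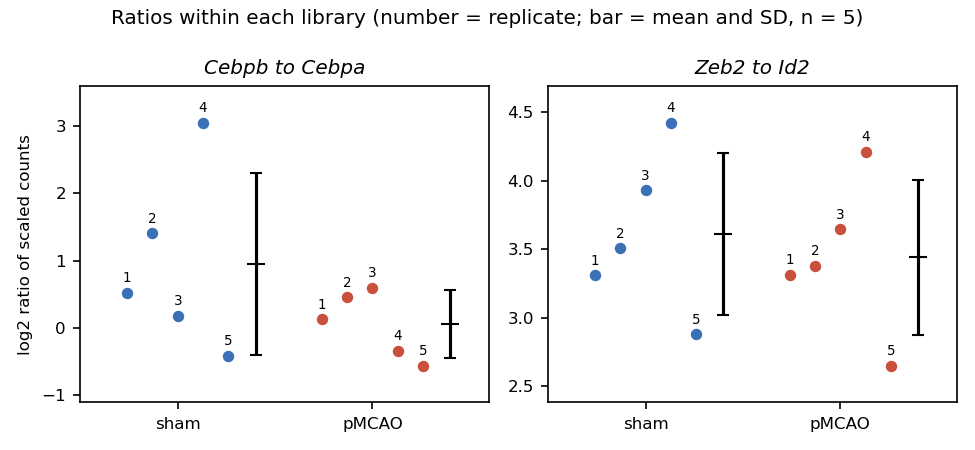
Log2 ratio of scaled counts within each library for Cebpb to Cebpa and Zeb2 to Id2, with replicate numbers and the mean and SD of each group. Sham replicate 4 reaches 3.05 for Cebpb to Cebpa, and both groups overlap in each panel.

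Maf and Zeb2 are factors of the mature tissue macrophage. Maf, a large MAF factor that drives Il10 and genes of the resident state, lies on the minus strand of chromosome 8 from 115682942 to 115707794 and shares 440 exon bases with Gm15655 on the other strand. Its level was 363.1, 214.2, 370.9, 661.4 and 147.8 scaled CPM in sham replicates 1 to 5, and 315.1, 219.3, 462.0, 859.8 and 256.9 in pMCAO replicates 1 to 5. Replicate 4 was highest and replicate 5 or 2 lowest in both groups, and the ranges of the groups overlapped. For Maf the log2 fold change was 0.27 with a standard error of 0.44 (95% interval -0.68 to 1.21, edgeR FDR = 0.954). It turned to -0.17 without pMCAO replicate 4, and to -0.36 without both libraries with Xist counts.

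Zeb2, a zinc finger repressor that keeps the identity of tissue macrophages, lies on the minus strand of chromosome 2 from 44983632 to 45117395, and 658 of its exon bases are shared with Zeb2os, Gm27761 or Mir5129. The values were 1066, 1063, 1229, 1614 and 807 scaled CPM in sham replicates 1 to 5, and 1396, 1005, 1456, 1947 and 1094 in pMCAO replicates 1 to 5. As for Maf, replicate 4 was highest in each group and sham replicate 5 was lowest. The log2 fold change was 0.26 with a standard error of 0.23 (95% interval -0.25 to 0.76, edgeR FDR = 0.925), and it was 0.09 without pMCAO replicate 4 and -0.01 without both libraries with Xist counts.

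Zeb2 was also set against a partner within each library. Id2 encodes an inhibitor of E proteins and is repressed by Zeb2 in other mononuclear phagocytes. The log2 ratio of Zeb2 to Id2 was 3.61 ± 0.59 in sham and 3.44 ± 0.57 in pMCAO (SD, n = 5 each), a difference of -0.17 (exact permutation test, two-sided p = 0.651, adjusted p = 0.833 over 3 ratios), which turned to 0.03 without sham replicate 4 or without pMCAO replicate 5.

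Runx3, a Runt factor that macrophages of barrier tissues use and that CD8 T cells and innate lymphoid cells also express, lies on the plus strand of chromosome 4 from 135120652 to 135177990. It was at 55.4, 68.1, 78.1, 47.8 and 107.9 scaled CPM in sham replicates 1 to 5, and at 52.6, 74.8, 72.2, 48.1 and 75.5 in pMCAO replicates 1 to 5. Sham replicate 5 was highest, replicate 4 was lowest in both groups, and the pMCAO values lay within the sham range. Between groups the log2 fold change was -0.14 with a standard error of 0.23 (95% interval -0.65 to 0.36, edgeR FDR = 0.954). It was 0.05 without sham replicate 5 and 0.14 without both libraries with Xist counts. Sham replicate 5 also had the highest T cell marker sum, at 374 scaled CPM, and the part of T cells in the level of Runx3 was not tested.

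Irf5 and Klf4 answer to signals. Irf5, a factor that promotes inflammatory cytokines downstream of Toll-like receptors, lies on the plus strand of chromosome 6 from 29526625 to 29541871 and shares 411 of 2905 exon bases with Tnpo3 on the other strand. Its level was 143.7, 127.8, 133.9, 151.5 and 87.6 scaled CPM in sham replicates 1 to 5, and 111.7, 124.8, 145.6, 138.6 and 118.3 in pMCAO replicates 1 to 5. Only sham replicate 5 stood apart, below the rest. Irf5 had a log2 fold change of -0.01 with a standard error of 0.17 (95% interval -0.38 to 0.35, edgeR FDR = 0.998), the closest to 0 of the 8, and its sign changed with the scaling. With Spi1, Irf5 had the smallest spread of the 8 factors (biological coefficient of variation 0.244, percentile 6.83 of all genes tested).

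Klf4, a zinc finger factor of monocyte differentiation and of the alternatively activated state, lies on the minus strand of chromosome 4 from 55527143 to 55532466. It was at 216.9, 160.2, 114.9, 183.2 and 119.3 scaled CPM in sham replicates 1 to 5, and at 233.8, 149.6, 152.1, 220.5 and 188.4 in pMCAO replicates 1 to 5. Sham replicates 3 and 5 were below every pMCAO library, and the other 3 sham values were interleaved with them. In edgeR the log2 fold change was 0.25 with a standard error of 0.21 (95% interval -0.21 to 0.71, edgeR FDR = 0.922), and it stayed above 0 in each of the alternatives tried, where the smallest unadjusted p was 0.0576.

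**Figure D3:**
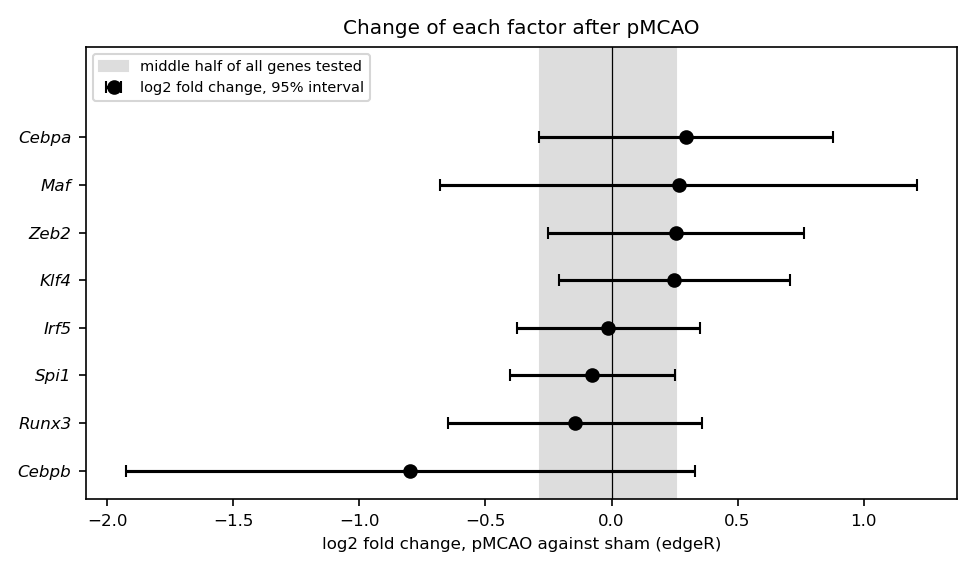
Log2 fold change of pMCAO against sham (horizontal axis) for each factor, with the 95% interval from edgeR, and in grey the range from the 25th to the 75th percentile of all genes tested, -0.29 to 0.26. All 8 intervals cross 0, and that of Cebpb is the widest.

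To set genes beside each other, levels were read per kilobase of merged exons, which pools all annotated transcripts of a gene. This length was 19.942 kb for Zeb2 and 2.695 kb for Spi1. No other length was tried, so the order of the genes depends on this annotation. The mean over the 10 libraries was 63.6 scaled CPM per kilobase for Zeb2, 57.0 for Klf4, 47.0 for Maf, 44.2 for Irf5, 41.1 for Spi1 and 38.1 for Cebpb. Runx3 at 13.6 and Cebpa at 12.9 formed the lower end. Neighbours in this order changed places between libraries. Zeb2 was above Klf4 in 7 of 10 libraries, Klf4 above Maf in 6, Maf above Irf5 in 3, Irf5 above Spi1 in 8, Spi1 above Cebpb in 7, Cebpb above Runx3 in 8 and Runx3 above Cebpa in 6. The level of Maf was thus below that of Irf5 in most libraries, although its mean was higher.

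Each factor was set beside its family on the same scale. In sham, Klf4 at 52.1 scaled CPM per kilobase was below Klf6 at 182 and Klf2 at 65.8, while Maf at 42.7 was above the small factors Mafg at 3.75, Mafk at 2.98 and Maff at 2.88. Cebpb at 48.4 was above Cebpg at 16.3, and Cebpa at 11.6 was below Cebpg. Zeb2 at 58.0 was far above Zeb1 at 2.41, while Runx3 at 14.3 was below Runx1 at 27.1. Spi1 at 42.2 was near Elf1 at 38.1 and Fli1 at 35.8, and above its closest relatives Spib at 5.89 and Spic at 4.30, while Irf5 at 44.4 led its family ahead of Irf8 at 29.1. In pMCAO, Maf was at 51.3 against Mafg at 3.83 and Zeb2 at 69.2 against Zeb1 at 2.80, while Fli1 at 40.3 stood level with Spi1 at 40.0. Klf2 at 51.4 was then below Klf4 at 62.0, and Klf6 at 185 stayed above it.

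**Figure D4:**
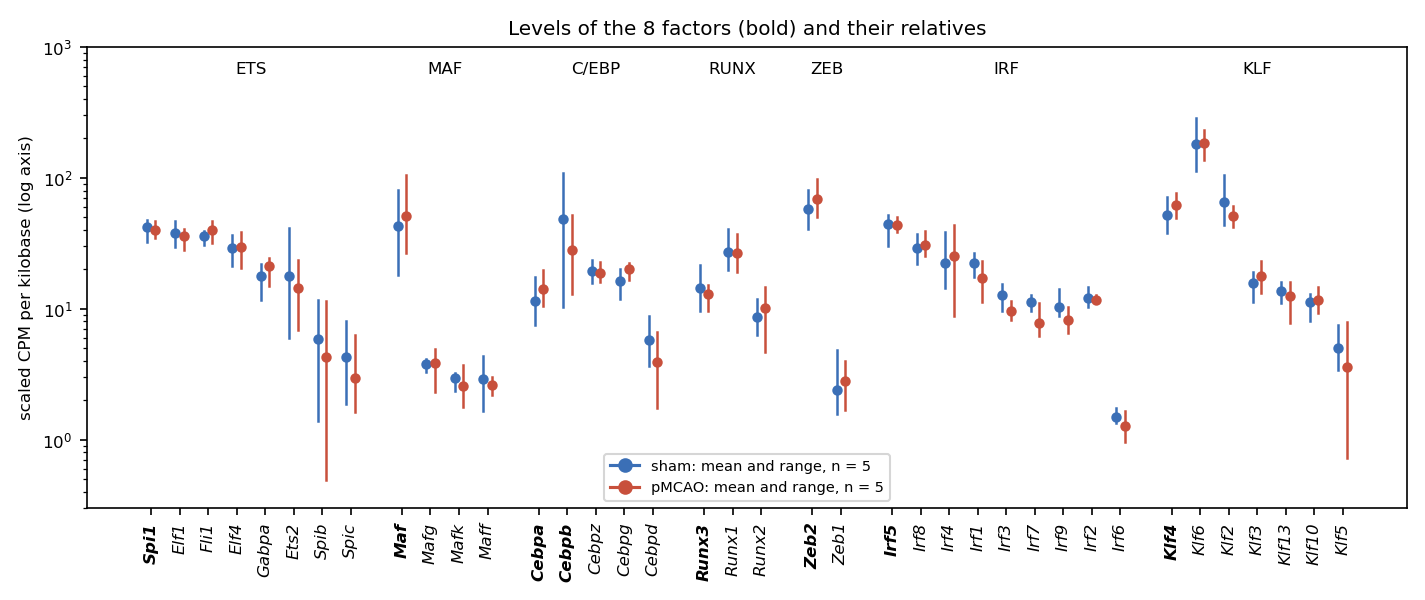
Scaled CPM per kilobase of merged exons (log axis) of the 8 factors, in bold, and of relatives from their families, as the mean and range over the 5 sham and the 5 pMCAO libraries. Cebpz, shown with the C/EBP genes, is one by symbol only. By its mean, Klf6 lies above the other genes shown, at 182 in sham, and the ranges of both groups overlap for each of the 8 factors.

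Several of the 8 factors varied together from library to library within the groups. Over 44 relations (28 pairs of factors, and each factor with the summed macrophage and T cell markers), log2 values were centred within groups and tested by exact permutation within groups over 14400 arrangements, two-sided, with adjustment over the 44. These points share library and depth, and scaled values within a library are not independent. Maf and Zeb2 were most alike, with Pearson's r = 0.956 and Spearman's rho = 0.976 (exact p = 6.94e-05 for both, the smallest possible, adjusted p = 0.00306). Without sham and pMCAO replicates 4, the libraries farthest from the median of Maf, r was 0.880. The replicates stood in the same order of summed macrophage markers in both groups (4, 3, 1, 2, 5 from high to low), so same-numbered libraries were also permuted together, an alternative chosen after seeing the data that leaves 120 arrangements. Maf with Zeb2 then had an exact permutation p of 0.00833 for r and for rho, the smallest possible, and none of the 44 relations had an adjusted p under 0.05 (smallest 0.131 by r and 0.0917 by rho). The p-values below are those of the permutation within groups.

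All 7 pairs with Runx3 had a negative r and all 21 others a positive one. The strongest of the former was Runx3 with Klf4, at r = -0.839 (exact permutation p = 0.0101, adjusted p = 0.04998) and rho = -0.782 (exact permutation p = 0.0180, adjusted p = 0.0791), and r without sham replicates 4 and 5 was -0.855. Runx3 with Zeb2 had r = -0.795 (exact permutation p = 0.0143, adjusted p = 0.04998) and rho = -0.770 (exact permutation p = 0.0201, adjusted p = 0.0806), and r was -0.607 without the same libraries. Permuted within groups, 7 of the 28 pairs had an adjusted p under 0.05 by Pearson's r, and only Maf with Zeb2 by both measures. With same-numbered libraries permuted together no pair had. The share that pairs of other genes would give was not computed, so the count is not a trait of these factors. Spi1 with Irf5, at r = 0.830 (exact permutation p = 0.0158, adjusted p = 0.04998) and rho = 0.782 (exact permutation p = 0.0135, adjusted p = 0.0720), rested on sham replicate 5 and pMCAO replicate 3, without which r was 0.278.

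The summed macrophage markers had a positive r with 7 of the 8 factors and a negative one with Runx3, and not every r passed the test. Among these markers, Csf1r, Fcgr1, C1qa, C1qb, C1qc, Cx3cr1, Mrc1 and Cd14 are also listed here as known targets of the factors. The highest r was that of Irf5, at 0.895 with rho 0.782 (exact permutation p = 0.00375 and 0.0142, adjusted p = 0.0481 and 0.0720), and r was 0.808 without sham and pMCAO replicates 5. With Maf the r was 0.868 and rho 0.952 (exact permutation p = 0.00236 and 0.000347, adjusted p = 0.0481 and 0.00611), and r was 0.894 without sham and pMCAO replicates 5. With Zeb2 the r was 0.817 and rho 0.952 (exact permutation p = 0.0075 and 0.000417, adjusted p = 0.04998 and 0.00611), and r was 0.734 without the same libraries. T cell markers had the opposite signs throughout, and Irf5 was the factor that passed by both measures, with r = -0.809 and rho = -0.903 (exact permutation p = 0.0152 and 0.00215, adjusted p = 0.04998 and 0.0237), and r of -0.810 without sham replicate 4 and pMCAO replicate 3. For Cebpb and T cell markers, r was -0.884 and rho -0.697 (exact permutation p = 0.00437 and 0.0462, adjusted p = 0.0481 and 0.102), and r was -0.731 without the same libraries. For Runx3 and T cell markers r was 0.655 and rho 0.721 (exact permutation p = 0.0643 and 0.0344, adjusted p = 0.111 and 0.0892), and r was 0.854 without those 2 libraries.

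**Figure D5:**
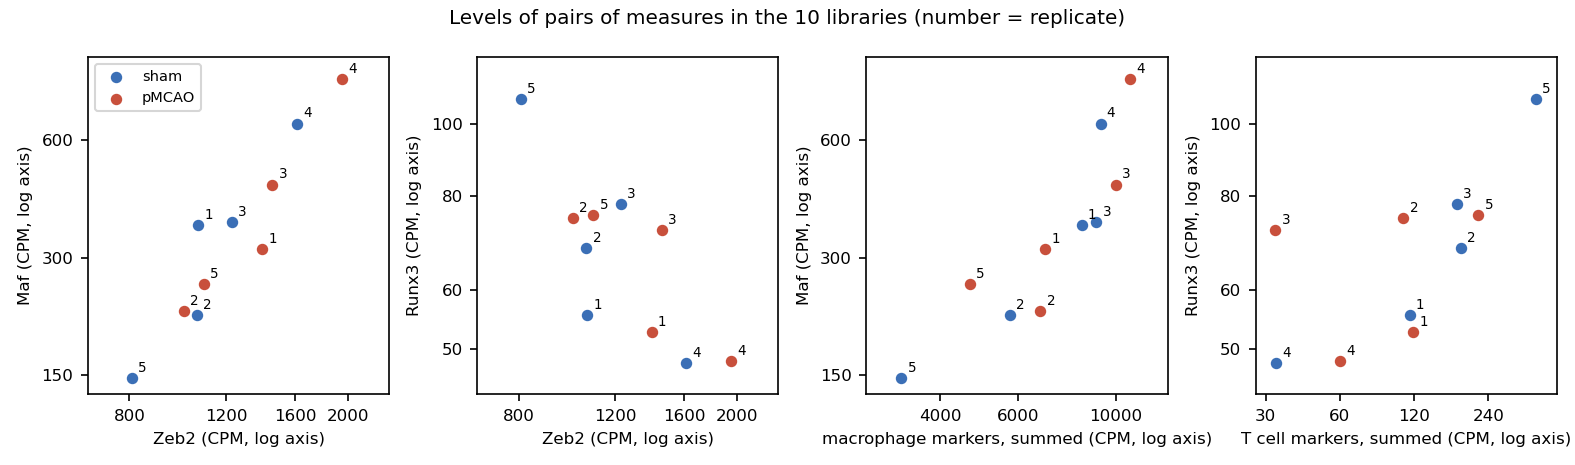
Scaled CPM on log axes of Maf against Zeb2, Runx3 against Zeb2, Maf against the summed macrophage markers and Runx3 against the summed T cell markers, 1 point per library with its replicate number. Maf rises with Zeb2 through both groups, and Runx3 is highest in sham replicate 5, the library with the lowest Zeb2, at 807 scaled CPM.

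The genes whose pattern over the 10 libraries was most like that of each factor were sought among 4995 genes with a mean of at least 32 CPM, by Pearson's r of log2 values centred within groups, as a description. For Cebpb these were Atf3 (r = 0.978), a stress response factor, Mt1 (r = 0.975), a metallothionein, and Cxcl2 (r = 0.972), a neutrophil chemokine. Close to Maf were Wwp1 (r = 0.985) and Cd86 (r = 0.982), and close to Zeb2 were Qk, Rock2 and Fcho2, at 0.972 to 0.990. Spi1 was closest to Lars2, Vamp8 and Snx6 (0.956 to 0.972) and Runx3 was near Smc2 and Itpr3 (0.898 for both). Cebpa was nearest to Tmx1, Arl14ep and N4bp1 (0.879 to 0.922), and Klf4, at 0.851 to 0.902, to Trim8, Tspyl1 and Cnep1r1. For Irf5 the closest were Rn18s-rs5 (r = 0.958), a ribosomal RNA related sequence, Mir6236 (r = 0.957) and Kcnip3 (r = 0.936).

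Among the partners and targets of the 8 factors, no gene passed an FDR of 0.05 in edgeR either. In the 4 ZEB and ID genes tested, Id2 had a log2 fold change of 0.44 (unadjusted p = 0.0392, edgeR FDR = 0.922). Id3, a related inhibitor, had 16.1 to 33.1 scaled CPM in sham and 9.52 to 17.5 in pMCAO, at a log2 fold change of -0.93 (unadjusted p = 0.00369, edgeR FDR = 0.922). Of 25 genes known as targets of these factors, 13 had a value above 0 and 12 below. Tgfbr1, a TGF-beta receptor gene, was at 258 to 343 scaled CPM in sham and 387 to 639 in pMCAO, so that the groups did not overlap, with a log2 fold change of 0.72 (unadjusted p = 0.00143, edgeR FDR = 0.922). The others named by the same rule had wider errors, with log2 fold changes of 1.29 ± 0.73 for Folr2, -1.19 ± 0.66 for Il10 and -1.003 ± 0.72 for Il1b (SE).

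In the families of the factors, 12 ETS, 4 MAF, 4 C/EBP, 3 RUNX, 8 IRF and 10 KLF genes were tested beside the 8, and none was called. Irf7, an interferon response factor, was at 36.4 to 48.0 scaled CPM in sham and 23.5 to 41.5 in pMCAO, a log2 fold change of -0.55 (unadjusted p = 0.0103, edgeR FDR = 0.922), and Irf3 followed at -0.39 (unadjusted p = 0.0585, edgeR FDR = 0.922). Irf4 at 0.18 and Irf8 at 0.06 were the IRF genes above 0. Cebpg at 0.30 and Ddit3 at 0.09 stood opposite Cebpd at -0.57 and Cebpz at -0.05 in the C/EBP list, where Cebpz is a C/EBP gene by symbol only. Of the small MAF relatives, Mafk was at -0.21, Maff at -0.14 and Mafg at 0.03. Among RUNX genes, Runx2 was at 0.25, the shared partner Cbfb at 0.18 and Runx1 at -0.03. Gabpa at 0.27 and Fli1 at 0.17 were the ETS genes above 0 with the smallest p, and Erg at -1.75 and Spic at -0.54 those below, Erg having no counts in some libraries of each group. For KLF genes the same rule gave Klf11 at 0.38, Klf9 at 0.58, Klf2 at -0.36 and Klf5 at -0.49, and for ZEB and ID genes also Zeb1 at 0.22 and Id1 at -0.76. Of 17 further factors of mononuclear phagocytes, 7 were above 0 and 10 below, among them Egr1 at 0.35, Mitf at 0.22 and Nfil3 at -0.72. Tfeb, a regulator of lysosomal genes, was at 20.4 to 27.9 scaled CPM in sham and 13.3 to 19.8 in pMCAO, with no overlap (log2 fold change -0.46, unadjusted p = 0.0300, edgeR FDR = 0.922).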

How the data were processed

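The deposited table gives raw counts for each gene in 10 libraries, with CPM values that the authors made from them, and per the labels they used STAR, featureCounts and limma with GRCm38 (mm10). The authors' own log2 fold changes, mean log2 expression and p-values stand in the same deposited table and were not used. Every listed gene reached 10 counts in 2 or more libraries, so lower genes had been dropped before deposit. Titles call the replicates biological. Strand settings, collection days and the number of animals in pools are not given in the sources used here.

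Counts were filtered (filterByExpr), scaled by TMM and compared with edgeR 4.0.16 (quasi-likelihood, R 4.3.3), with no covariate. An exact permutation test over 252 assignments served for library measures and for ratios (prior count 0.5). Levels per kilobase used merged GENCODE exons on GRCm38. The 8 factors and all lists were chosen with earlier results of these data known. Genes named are the 8, the ratio partners, the 2 smallest unadjusted p in each direction per list, the 3 most alike per factor and the leading markers; some genes these rules give, and 1 of the 3 ratios, are not reported here. Klf6, Elf1, Spib, Zeb1 and others in the comparison of levels were named after their values were seen. Tests were checked on simulated data. Replicates differed by more than counting noise (lowest chi-square over its degrees of freedom 42.7). Alternatives were DESeq2 1.42.0, limma-voom (limma 3.58.1), other scalings and filters, a replicate block and leaving out libraries; scaling to macrophage markers was added after seeing the data.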

Additional observations from a re-analysis of the deposited data

Results flagged for a closer look

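In 38 groups of 5 values tested for a library far from the others, 1 was singled out, where chance gives about 5%. The summed stromal and endothelial markers were low in pMCAO replicate 3, at 34.4 scaled CPM. The other 4 pMCAO libraries were at 72.0 to 89.0. On the log2 scale the gap was 0.778 of the range (limit 0.71), and in unlogged scaled CPM it was below that limit. None of the 8 factors was singled out in either group.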

How the results depend on the processing

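None of the 8 factors, and none of the other listed genes, was called under any of 13 alternatives or without any single library. Over all genes, DESeq2 called 3 and the others 0. The count of genes at an unadjusted p under 0.05 (799) was 1888 with sample quality weights, 1303 with the replicate block, 462 without both pooled libraries and 202 when scaled to macrophage markers, an alternative chosen after seeing the data, and without a single library from 575 to 1268. The cause was not tested. The labels name no pairs, so the main test took none. Deviations of same-numbered libraries had correlations of -0.01 to 0.41 (mean 0.23). Those of differently numbered libraries were not computed, so these values do not settle whether the numbers mark pairs. The macrophage marker sums of the replicates stood in the same order in both groups. With the replicate block, the unadjusted p in edgeR went from 0.553 to 0.136 for Maf, 0.296 to 0.0938 for Zeb2 and 0.259 to 0.0914 for Klf4. That p also fell for Spi1, Cebpa and Runx3 and rose for Cebpb and Irf5, and the block called 0 genes. The log2 fold change of Irf5 (-0.01) turned to 0.011 with DESeq2, 0.013 with limma-voom, 0.010 with DESeq2 size factors, 0.014 with upper-quartile scaling, 0.020 with total counts, 0.0057 with the replicate block and 0.075 without both pooled libraries, and without a single library it ran from -0.13 to 0.041. Without both libraries with Xist counts, Maf was -0.36, Runx3 0.14 and Zeb2 -0.0098. Without a single library, Maf ran from -0.17 to 0.62, Runx3 from -0.27 to 0.047, Zeb2 from 0.092 to 0.40, Cebpb from -1.16 to -0.27, Cebpa from 0.14 to 0.50, Zeb2 to Id2 from -0.36 to 0.032 and Cebpb to Cebpa from -1.23 to -0.37. Spi1, Cebpa, Cebpb and Klf4 kept their sign in all of these, and the smallest FDR of any of the 8 was 0.464, for Klf4. Of 44 relations across libraries, 14 had an adjusted p under 0.05 by r and 4 by rho, and 0 by either with same-numbered libraries permuted together. The share that other genes would give was not computed. Intervals of the 8 factors leave room for changes in either direction. Total counts were lower in pMCAO, which limits weakly expressed genes more than these 8.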

Other observations

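Factors of other lineages were read beside the 8 macrophage factors. Of 20 such genes tested, 17 had a log2 fold change below 0 and 3 above, with a median of -0.65, against a median of -0.01 over all genes, and edgeR called 0 of the 20. Gata2, a factor of mast cells and endothelium, had 16.2 to 85.0 scaled CPM in sham and 2.43 to 39.9 in pMCAO, at a log2 fold change of -1.61 (unadjusted p = 0.0391, edgeR FDR = 0.922). Cdx1, an intestinal epithelial factor, was at -1.12 (unadjusted p = 0.120, edgeR FDR = 0.922), while the B cell factor Ebf1 was at 0.29, with a standard error of 0.87. All 7 T cell markers and all 7 epithelial markers had values below 0, with medians of -0.87 and -0.60 and none at an unadjusted p under 0.05. Their summed levels gave p = 0.476 and 0.151 between groups (exact permutation test, adjusted p = 0.960 and 0.679). Genes above and below 0 were 7 and 4 for macrophage markers and 2 and 5 for B and plasma cells. They were 3 and 4 for dendritic cells, 3 and 4 for stromal and endothelial cells, and 1 and 2 for neutrophils and eosinophils. The part of other cell types in these values was not tested.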
